A study of Rattus norvegicus with 24 samples.

Results

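Rat neurospheres kept in ascorbic acid were compared with and without 1 Gy of radiation, as 4 irradiated samples (AGy) against 4 samples that were not irradiated (A). These 8 samples were chosen by their treatment alone and are 8 of the 24 samples sequenced. Neural progenitor cells from E15 Sprague Dawley rat fetuses were grown as floating spheroids with epidermal and fibroblast growth factors. Ascorbic acid at 200 µM was given before and after the time of irradiation in both A and AGy, and photons came from a benchtop X-ray source on day 3 after seeding. Without ascorbic acid, the series holds untreated (C) and irradiated (CGy) neurospheres, and neurospheres given 5 µM of Noggin without (N) or with radiation (NGy). Each of the 6 groups has 4 samples. One control sample, MO2, was left out of C here, as it was by the study, which leaves 3. The sources used here do not say how many litters or separate cultures the samples came from, so a p-value measures only the spread between these samples.

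Neurospheres are aggregates of neural stem and progenitor cells that can renew or mature into neurons, astrocytes and oligodendrocytes. Ionizing radiation breaks DNA directly and through reactive oxygen species, and dividing progenitors are among the most sensitive cells of the brain. Ascorbic acid scavenges reactive oxygen species and is also a cofactor of enzymes that hydroxylate collagen and remove methyl groups from DNA and histones. Noggin binds bone morphogenetic proteins, which drive progenitors towards astrocytes. The comparison of AGy with A asks what radiation did to the transcriptome once ascorbic acid was present in both groups.

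Values are transcripts per 1000000 transcripts (TPM), a gene's share of a sample's transcripts after division by transcript length. The files list Ensembl rat gene identifiers, and no table used here pairs these with gene symbols, so genes are described by counts and by expression level, and 4 of them by identifier. The defining markers of progenitors, astrocytes, neurons and other cells could therefore not be checked against the label of the samples. In bulk RNA, fewer cells of a type and less RNA per cell cannot be told apart.

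In the values without batch correction, no single gene passed the test for a response to 1 Gy in ascorbic acid. Of 16478 genes listed, 9859 averaged 1 TPM or more in A or AGy and were tested with limma on log2(TPM + 1). At a Benjamini-Hochberg adjusted p of at most 0.05 and a change of at least 1.5-fold, 0 genes were called, or 0% of those tested, and 0 passed on the adjusted p alone. The smallest adjusted p was 0.0509. The median gene differed between the groups by 0.12 on the log2 scale, in either direction, with a median standard error of 0.12. Within groups, the SD of the median gene was 0.18.

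At an unadjusted p under 0.05 there were 1256 genes, of which 521 were higher in AGy, or 5.28% of the genes tested, and 735 were lower, or 7.46%. Over all genes tested, 47.8% had a higher mean in AGy and 52.2% a lower one. The 4 AGy values lay wholly above or below the 4 A values in 799 genes, or 8.1%. Of these, 374 were higher and 425 lower in AGy. A difference of at least 1.5-fold between the group means was seen in 179 genes upwards and 155 downwards, but the groups did not overlap in only 58 and 68 of these. At 2-fold or more, there were 23 genes upwards and 18 downwards. Going from one side of 1 TPM to the other was rare: 6 genes reached 1 TPM in every A sample and in no AGy sample, and 4 genes did so in the opposite direction.

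**Figure D1:**
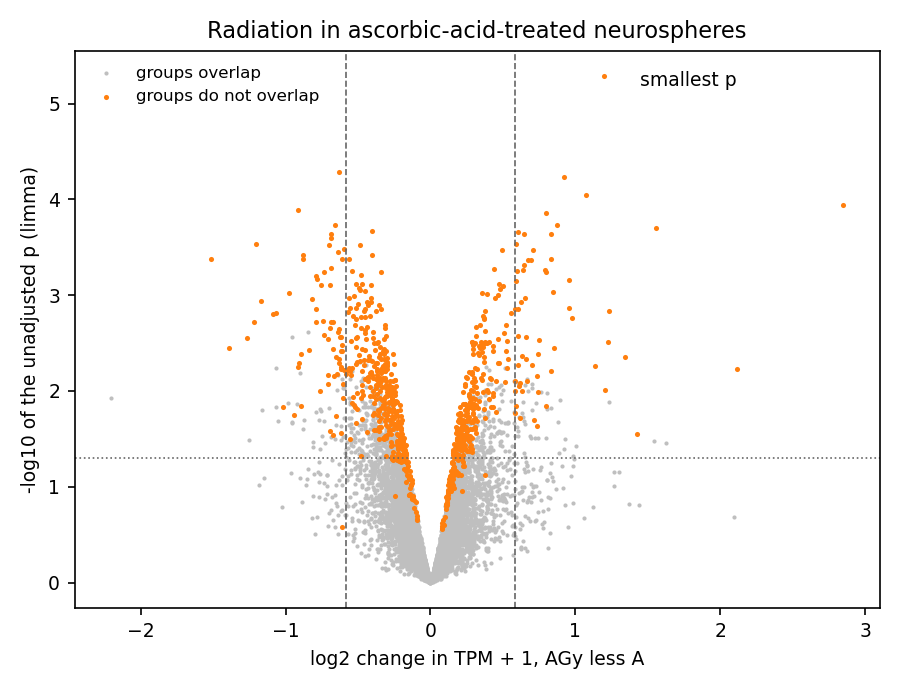
Each point is 1 of the 9859 genes tested, with the log2 change of AGy against A in TPM + 1 on the x axis and -log10 of limma's unadjusted p on the y axis. Dashed lines mark 1.5-fold and the dotted line an unadjusted p of 0.05. The 799 orange genes have groups without overlap, and the gene at the top right of centre, with the smallest p, has an adjusted p of 0.0509.

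The balance of higher and lower genes differed with expression level on the deposited scale. Among the 917 genes with a mean over the 8 samples of at least 100 TPM, 86 were higher and 33 lower in AGy at an unadjusted p under 0.05. On this scale lower genes were the more frequent in each class below this, with 169 higher and 221 lower among 3368 genes from 20 to 100 TPM, 125 and 261 among 3160 genes from 5 to 20 TPM, and 141 and 220 among 2414 genes under 5 TPM. The balance of both upper classes turned with the scale. In the highest class, 23 genes were higher and 60 lower after rescaling to a common sum, and 45 and 66 after quantile normalization, against 86 and 31 with the median of ratios. From 20 to 100 TPM, 207 genes were higher and 197 lower with the median of ratios, against 66 and 409 after rescaling and 192 and 237 after quantile normalization.

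The genes listed also held a larger share of each AGy sample than of any A sample. Their TPM summed to 622464, 616988, 615858 and 615330 in the A samples MO9 to MO12, and to 645052, 643928, 655289 and 643344 in the AGy samples MO21 to MO24. All 4 AGy samples were above all 4 A samples, by 29243 TPM on average. The exact permutation test, two-sided, gave p = 0.0286, the smallest that 4 samples against 4 allow, and 0.0857 after adjustment over the 6 measures compared this way. The sum of the 10 genes with the highest TPM ran from 97781 to 112390 TPM in A and from 111199 to 131016 TPM in AGy (exact permutation p = 0.0571, adjusted 0.114). The remaining genes summed to between 506784 and 519207 TPM in A and between 524273 and 532145 TPM in AGy (exact permutation p = 0.0286, adjusted 0.0857). The number of genes with at least 1 TPM overlapped, at 9485 to 9714 in A and 9477 to 9720 in AGy. Over the genes listed, the other groups summed to 605633 to 627580 TPM in C with MO2, 615930 to 628348 in N and 650049 to 655264 in NGy. In CGy, MO14B was at 649751 TPM, but MO13, MO15 and MO16 were at 630861, 625612 and 622007 TPM. Not every irradiated sample was thus as high as AGy. Every sample from MO17 to MO24 was high, as was MO14B, so the sum also went with sample number. A and AGy, and likewise N and NGy, fall on opposite sides of this split. Radiation and another difference between these sets of samples cannot be told apart here, and what set this sum was not tested.

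The counts of higher and lower genes depended on the scale chosen. As deposited, the median gene changed by -0.01 on the log2 scale in AGy against A. Over all genes listed, the rises came to 46758 TPM and the falls to -17515 TPM, a net difference of 29243 TPM. The 100 largest rises alone summed to 28008 TPM. With each sample rescaled to a common sum over the genes listed, 268 genes were higher and 1195 lower at an unadjusted p under 0.05, so the share of higher genes among them went from 41.5% to 18.3%. With the median of ratios it was 48.1%, from 635 higher and 685 lower genes, and with quantile normalization 44.5%. Rescaling shifted the median gene by -0.06 on the log2 scale.

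**Figure D2:**
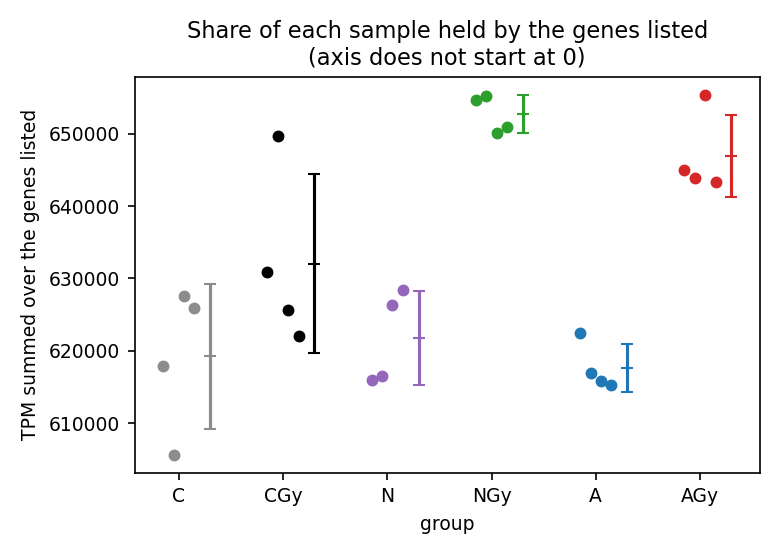
Points give the TPM summed over the genes listed in each sample for the 6 groups, with the mean and SD of each group beside them, and the y axis does not start at 0. The 4 AGy samples lie between 643344 and 655289 TPM and the 4 A samples between 615330 and 622464 TPM. Group C includes MO2.

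Across the whole profile, samples of A and AGy lay nearly as far from their own group as from each other before the correction. Distances were root mean square differences in log2(TPM + 1), taken across the 9859 tested genes. Pairs within A lay 0.315 to 0.434 apart, pairs within AGy 0.311 to 0.432, and pairs of an A and an AGy sample 0.334 to 0.489. The sample nearest to MO10 of A was MO23 of AGy, at 0.387, and the sample nearest to MO24 of AGy was MO12 of A, at 0.351. The other 6 samples had their nearest neighbour in their own group.

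The largest principal component of the 8 samples, with 28.3% of the variance, did not follow radiation. It set MO9 (26.8) and MO10 (11.3) of A and MO21 (13.3) of AGy on one side, and the other 5 samples, from -16.0 to -5.53, on the other side. The groups lay apart on the second component, which held 20.7%. A ran from -15.8 to 0.99 and AGy from 1.15 to 20.2, so MO10 and MO22 were close to each other at the border. In the authors' batch-corrected values the first component, with 28.2%, had A from -17.1 to -2.92 and AGy from 6.53 to 17.5. That correction kept the group means and removed part of the spread within groups. By itself this gives the difference between groups more weight in the components.

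**Figure D3:**
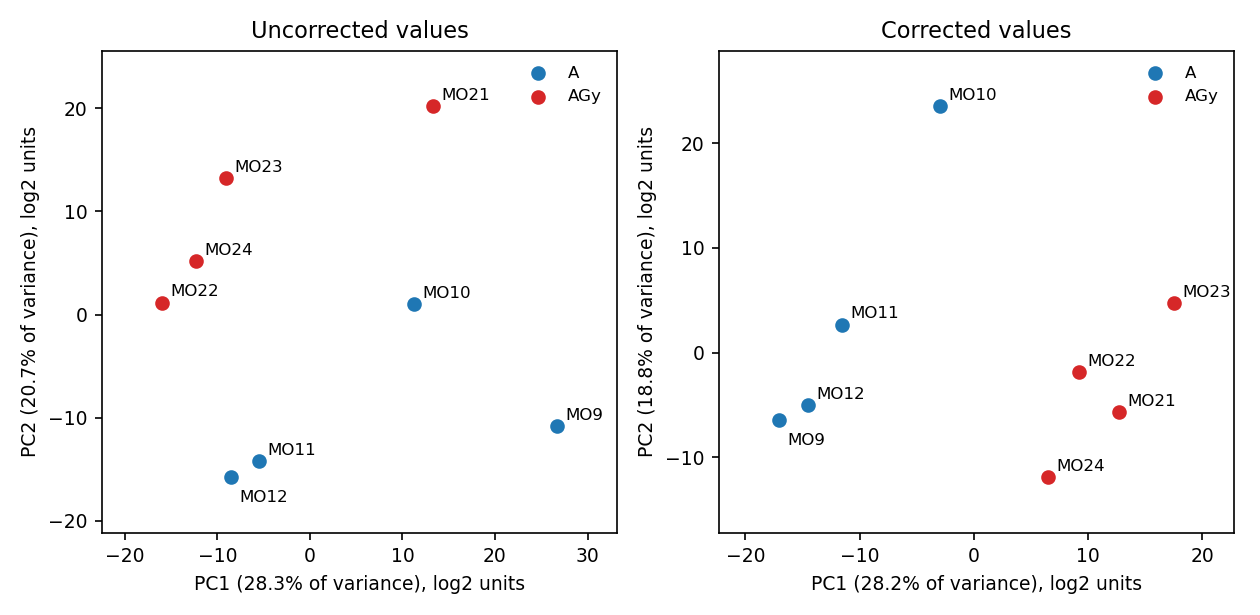
Principal components of the 4 A and 4 AGy samples over the 9859 genes, from uncorrected log2(TPM + 1) on the left and batch-corrected values on the right, with the share of variance on each axis. Before the correction the groups lie apart along PC2 and mix along PC1, and after it they lie apart along PC1. The correction kept the group means and removed part of the spread within groups.

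The number of genes called depended on that correction. It removed 27.5% of the sum of squares within A and AGy, and brought the SD of the median gene from 0.18 to 0.13 on the log2 scale. As deposited, the corrected values kept the group means of log2(TPM + 1) to within 4e-09, but corrected TPM below 0 were set to 0 for the tests, which moved the means of genes near 0. Since the spread within groups was reduced and the group means were kept, the p-values rest on a spread smaller than that between the sequenced samples. After it, 102 of 9850 genes were called with limma at an adjusted p of at most 0.05 and 1.5-fold, or 1.04%, with 54 higher and 48 lower in AGy. In the uncorrected values, 94 of these 102 genes had an unadjusted limma p under 0.05, beside 1256 of all 9859 tested. The groups did not overlap in 75, beside 8.1% of all genes tested. The 102 were chosen on the same 8 samples with the group means kept, so these counts are no separate support. The uncorrected adjusted p of the 102 genes ran from 0.0509 to 0.573. When those 2 components were instead fitted as covariates beside the uncorrected values, which spends degrees of freedom on them, 11 genes were called, or 0.112%, with 7 higher and 4 lower. Of these 11 genes, 10 were among the 102. With all 6 groups in one uncorrected fit, which shares the spread between groups, 20 genes were called, 11 higher and 9 lower.

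ENSRNOG00000013622 had the smallest p of all genes tested and was singled out after its values were seen. It stood at 1.07, 1.58, 1.70 and 1.67 TPM in A and at 4.99, 5.53, 4.01 and 4.43 TPM in AGy. Every irradiated sample was more than 2 TPM above every sample of A, at a low level of expression. The log2 change was 1.20 ± 0.12 (SE, n = 4 and 4), with a limma adjusted p of 0.0509. In 12 of the 17 alternatives in which the gene was tested the adjusted p stayed above the threshold, up to 0.211 without MO12, 0.168 without MO11 and 0.152 without MO21, and it was 0.120 with a pseudocount of 0.1. It passed the threshold with quantile normalization (0.0305), with the median of ratios (0.0329), without MO9 (0.0470), in the batch-corrected values (0.00567) and with the components as covariates (0.0405).

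ENSRNOG00000027888 had the largest increase in log2(TPM + 1) among genes with groups that did not overlap and at least 5 TPM in either group. It was listed at 0, 2.72, 3.91e-07 and 0 TPM in A and at 6.04, 11.1, 11.0 and 8.74 TPM in AGy. All 4 irradiated samples were above all samples of A, and MO10 was the only sample of A in which the gene was above 1 TPM. The log2 change was 2.85 ± 0.43 (SE), with a limma adjusted p of 0.129. With 3 of the 4 samples of A at or near 0, this size was set by the pseudocount, and it was 5.30 with a pseudocount of 0.1. Without MO10, the change was 3.32 and the adjusted p 0.00227. Values at or near 0 recur in other groups: CGy held 1.39e-08, 3.07, 3.26 and 2.40 TPM and NGy 3.04e-09, 2.94, 3.54 and 6.06 TPM. Levels like those of AGy were also seen without radiation. C held 3.45, 17.1 (MO2), 8.39 and 0 TPM, and N held 7.20, 0.20, 1.72e-05 and 4.74 TPM.

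The gene with the next largest increase in log2(TPM + 1) was far less even among the samples. It had 3.56, 1.25, 3.07 and 0.043 TPM in A and 15.3, 20.8, 3.62 and 8.28 TPM in AGy. The groups were kept from overlapping by a narrow gap between MO9 of A and MO23 of AGy. Its log2 change was 2.11 ± 0.58 (SE), with a limma adjusted p of 0.235.

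ENSRNOG00000013850 had the largest decrease in log2(TPM + 1) under the same rule. It had 126, 98.9, 74.3 and 62.5 TPM in A and 56.3, 40.2, 36.8 and 32.2 TPM in AGy. The groups did not overlap, but A spanned from 62.5 to 126 TPM. The log2 change was -1.09 ± 0.24 (SE), with a limma adjusted p of 0.167. In the batch-corrected values, where A spanned only 78.0 to 93.2 TPM and AGy 35.0 to 44.1 TPM, the adjusted p was 0.00567, and with the components as covariates it was 0.0352.

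ENSRNOG00000006116 came next. It had 17.9, 13.8, 14.8 and 9.96 TPM in A and 7.18, 7.91, 6.53 and 3.59 TPM in AGy. The lowest A sample and the highest AGy sample were close to each other. The log2 change was -1.07 ± 0.23 (SE), with a limma adjusted p of 0.164 before and 0.0439 after the correction.

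**Figure D4:**
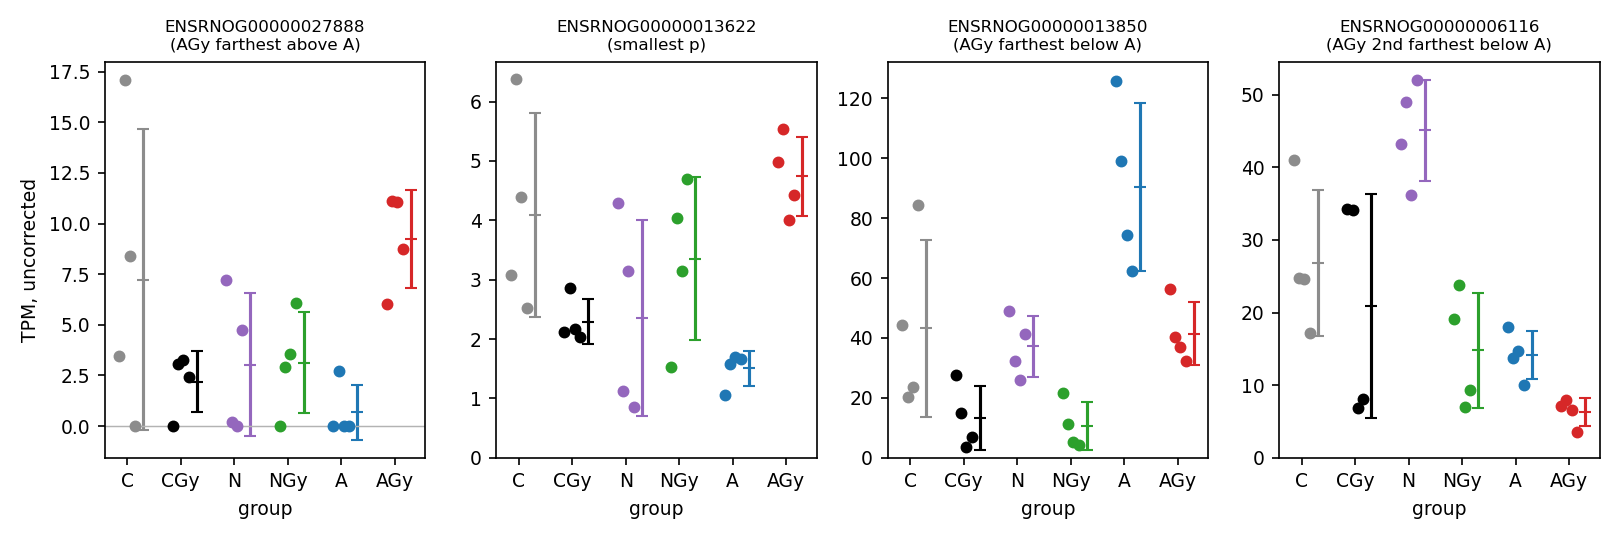
TPM without batch correction of 4 genes in each sample of the 6 groups, with the mean and SD of each group beside the points. AGy lies above A without overlap in the first and second panels and below A without overlap in the other panels. Group C includes MO2.

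Under the same rule, 328 genes were higher and 334 lower in AGy. They are among the 374 higher and 425 lower genes without overlap, together 8.1% of the 9859 tested. Of the 328 and 334, the 10 with the largest log2 change in each direction had changes of 0.98 to 2.85 and of -1.09 to -0.82. Their limma adjusted p ran from 0.129 to 0.339 for the 10 higher genes and from 0.153 to 0.298 for the 10 lower ones.

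The question whether genes responded in ascorbic acid as they did elsewhere was addressed with samples that A and AGy do not share. The sum over the genes listed was nonetheless higher in NGy (650049 to 655264 TPM) than in N (615930 to 628348 TPM), as in AGy against A. In CGy, only MO14B (649751 TPM) was in the range of AGy. The part of this shared shift in any agreement was not tested. In Noggin, 284 of 9765 genes were called in NGy against N at an adjusted p of at most 0.05 and 1.5-fold without batch correction, or 2.91%. Of these, 273 were tested in AGy against A, and 246 of them, or 90.1%, differed in the same direction, beside 71.4% of all genes tested in both. At an unadjusted p under 0.05 in AGy against A, 120 of the 273 differed in the same direction and 0 in the opposite one. The groups A and AGy did not overlap in 63 of the 273 genes, all in the direction seen in Noggin, beside 8.1% of all genes tested.

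Both directions contributed. Of 84 genes higher in NGy than in N, 74 were higher in AGy than in A, 33 of them at an unadjusted p under 0.05. Of 189 genes lower in NGy, 172 were lower in AGy, 87 of them at an unadjusted p under 0.05. The latter counts are 39.3% and 46% of the genes followed, beside 5.28% and 7.46% of all genes tested. Taken in the direction seen in Noggin, the median change of the 273 genes was 0.36 on the log2 scale in ascorbic acid. The median over all 9859 genes was -0.01, but without regard to direction, so it is not a like measure. For the 273 genes the signed median was 0.78 in Noggin, a value raised by the choice of the genes on those samples.

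The same genes were averaged in each sample, signed by their direction in Noggin and centred on the mean of A and AGy. The A samples MO9 to MO12 had -0.29, -0.10, -0.28 and -0.10, and the AGy samples MO21 to MO24 had 0.22, 0.01, 0.19 and 0.35. All AGy samples were above all A samples, with MO22 the closest to A. The CGy samples ran from -0.07 to 0.44 and the 3 samples of C from -0.25 to -0.06, so these groups overlapped narrowly, with MO13 of CGy below MO3 of C.

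Genes that differed with radiation alone were followed in the same way. They were taken at an unadjusted p under 0.05 and 1.5-fold in CGy against C, since only 2 were called there at the adjusted p. In all, 476 of 9782 genes, or 4.87%, met this. Of the 450 tested in AGy against A, 390, or 86.7%, differed in the same direction. At an unadjusted p under 0.05, 112 did so in the same direction and 3 in the opposite one. Over all genes, 58.2% had the same sign in both comparisons, and 5.28% were higher and 7.46% lower in AGy at that p. The mean of these genes in each sample overlapped between the groups: A had -0.44, -0.18, -0.02 and 0.06 in MO9 to MO12, and AGy had -0.17, 0.21, 0.22 and 0.32 in MO21 to MO24. MO9 and MO21, the samples lowest in their groups, also stood on the same side of the largest principal component, with MO10. The part of that component in these values was not tested.

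**Figure D5:**
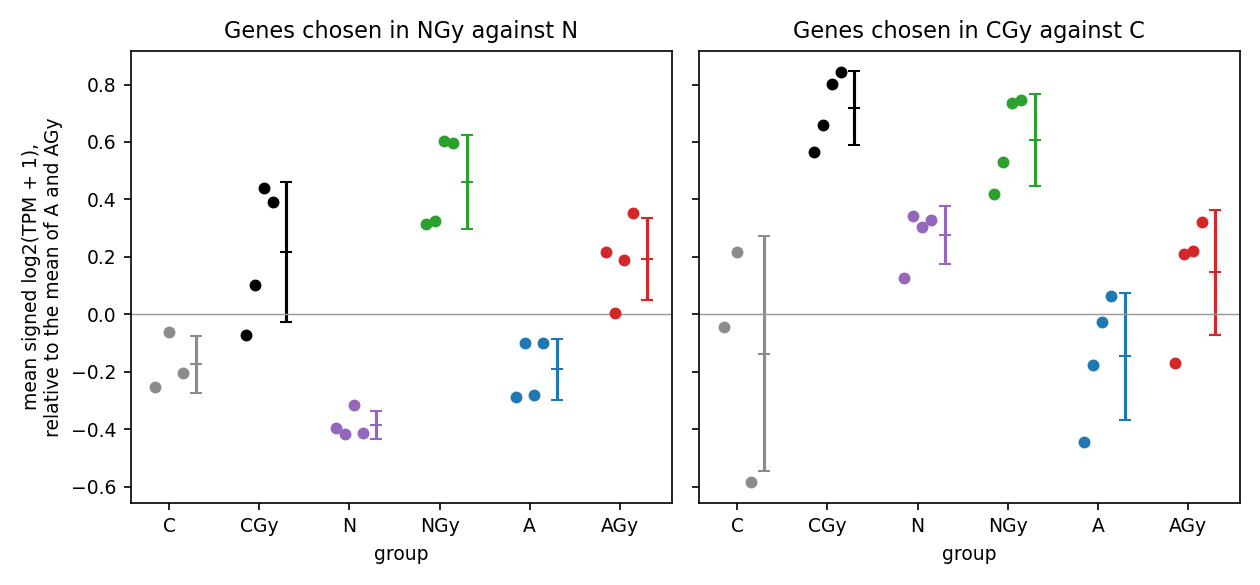
Mean log2(TPM + 1) of genes chosen in NGy against N (left) or in CGy against C (right), signed by their direction there and centred on the mean of A and AGy, for each sample without MO2, with the mean and SD of each group. N and NGy on the left and C and CGy on the right were used to choose the genes. AGy lies above A without overlap on the left, from 0.01 to 0.35 against -0.29 to -0.10, and overlaps with it on the right.

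Over all genes tested in both, changes in AGy against A and in NGy against N had the same sign in 71.4% of 9562 genes, with Pearson's r of 0.528 and Spearman's rho of 0.554 across genes. With CGy against C, the sign was shared by 58.2% of 9603 genes, with r of 0.422 and rho of 0.348. Genes are not independent replicates, the points share the libraries of each group, and these values are descriptions. AGy and NGy also shared a higher sum over the genes listed and the sample numbers MO17 to MO24. The part of either in these values was not tested. Over the 9482 genes tested in all 3 comparisons, the root mean square log2 change was 0.238 in ascorbic acid, 0.308 in Noggin and 0.334 with radiation alone. These values include sampling error, which was unlike between the comparisons. The median standard error was 0.121, 0.096 and 0.138 in the same order, the last with only 3 samples of C. Their order is thus not that of the responses alone. The 10 genes with the largest log2 increase in AGy that did not overlap were higher in NGy than in N in 9 cases and higher in CGy than in C in 8. The 10 with the largest decrease were lower in 10 and 9.

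ENSRNOG00000013850 and ENSRNOG00000006116 also had a lower mean log2(TPM + 1) with radiation in each of the other settings, but passed the test only in Noggin. C and CGy overlapped in both genes. MO13 of CGy was above MO3 of C, at 27.6 against 23.6 TPM in the first gene and 34.2 against 24.6 TPM in the second. The log2 change of ENSRNOG00000013850 was -2.00 ± 0.67 (SE) in CGy against C (limma adjusted p = 0.331) and -1.91 ± 0.44 in NGy against N (adjusted p = 0.0300). For ENSRNOG00000006116 it was -0.64 ± 0.64 (adjusted p = 0.606) and -1.68 ± 0.35 (adjusted p = 0.0218). No difference between these responses and those in ascorbic acid passed the test, with adjusted p from 0.679 to 0.838. ENSRNOG00000027888 differed by 2.85 in ascorbic acid but by -0.32 ± 0.82 with radiation alone (adjusted p = 0.840) and by 0.29 ± 0.84 in Noggin (adjusted p = 0.842). Neither difference between responses passed the limma interaction test without batch correction (adjusted p = 0.632 and 0.709). In the batch-corrected values, whose spread within groups was reduced, the limma adjusted p was 0.0217 against radiation alone and 0.291 against Noggin.

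Whether the response to radiation itself depended on ascorbic acid was tested as an interaction. Against radiation alone, the response differed in 1 of 10038 genes at a limma adjusted p of at most 0.05, or 0.00996%, and in 754 at an unadjusted p under 0.05, of which 319 had the higher change in ascorbic acid and 435 the lower one. The gene was ENSRNOG00000013622. It had 3.08, 4.39 and 2.52 TPM in the 3 samples of C and 2.12, 2.85, 2.17 and 2.04 TPM in CGy, so irradiated samples were on the whole the lower ones there, with overlap, and the higher ones in ascorbic acid. The change was -0.38 ± 0.16 (SE) on the log2 scale in CGy against C (adjusted p = 0.341) and 1.20 ± 0.12 in AGy against A, and the difference of the responses was 1.58 ± 0.20 (SE) with an adjusted p of 0.0276.

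The call for ENSRNOG00000013622 depended on single samples. The adjusted p was between 0.0529 and 0.109 when MO1, MO9, MO10, MO11, MO12, MO13, MO15, MO16, MO21, MO22 or MO24 was left out, and it stayed under the threshold without MO3, MO4, MO14B or MO23. It was 0.115 with MO2 kept in C and 0.419 with all 6 groups in one fit. The difference of the responses lay between 1.41 and 2.10 on the log2 scale in every one of the 26 alternatives in which the gene was tested.

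Against Noggin, the response differed in 0 of 10062 genes, or 0%, with a smallest limma adjusted p of 0.695 and 645 genes at an unadjusted p under 0.05, 322 with the higher and 323 with the lower change in ascorbic acid. For ENSRNOG00000013622 the difference was 0.75 ± 0.43 (SE), with an adjusted p of 0.808. With the batch-corrected values, the interaction called 1126 genes against radiation alone, 314 with the higher and 812 with the lower change in ascorbic acid, and 24 against Noggin, 23 higher and 1 lower. With the removed components as covariates these counts were 455 and 11. The same limit holds for them as for the corrected values above.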

How the data were processed

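Bulk polyA RNA sequencing covered 24 samples. TPM of every sample were estimated by the authors with Kallisto. The authors' methods also name STAR 2.6.1 for alignment. The authors also deposited a batch-corrected table of 23 samples without MO2, a score equal to 0.5 times the corrected TPM + 1, which was doubled here, with TPM below 0 set to 0. Columns carry the study's sample names, whose groups follow the study's figures; they could not be matched to single label entries. TPM keep no depth, so the depth per sample and counting error are unknown, and fold changes on log2(TPM + 1) understate those of low genes.

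Tests used limma 3.58.1 in R 4.3.3 (lmFit, eBayes) with a pseudocount of 1, a group mean of 1 TPM or more in any group compared, and Benjamini-Hochberg adjustment over all genes tested. Interactions had no fold threshold. Sums per sample were compared by exact permutation. Figures used matplotlib 3.10.9. The scripts were tested on simulated data. The samples compared, the gene lists and the rules were chosen with earlier results of these data known.

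Genes described singly were the 2 with the largest log2 increase and the 2 with the largest log2 decrease among genes with at least 5 TPM in either group and no overlap. The gene with the smallest p was added. At most 2 identifiers per direction are printed, so 1 is described without its identifier. The reference list matched 0 identifiers, so 17 fixed gene lists, cell type markers and promoter sequences were not used here. Alternatives were the corrected table, its components as covariates, pseudocount 0.1, other filters and scalings, a variance trend, a robust variance, other sets of groups in the fit, and each sample left out.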

Additional observations from a re-analysis of the deposited data

Results flagged for a closer look

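Each value given per sample was looked at for a sample set apart from the other 3 of its group by Dixon's ratio, in 26 sets of 4 values; chance marks about 5% of such sets. In A, ENSRNOG00000027888 was at 2.72 TPM in MO10 and at no more than 3.91e-07 TPM in the other 3 samples. In AGy, the TPM of the genes listed summed to 655289 in MO23, against 643344 to 645052 in the other 3 samples. The difference between AGy and A in that sum was 26448 TPM without MO23, against 29243 TPM with it.

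The response of ENSRNOG00000013622 to radiation differed between neurospheres with and without ascorbic acid by 1.58 on the log2 scale, in a limma interaction test with an adjusted p of 0.0276. It was higher in 4 of 4 irradiated samples with ascorbic acid than in any sample of A.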

How the results depend on the processing

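The count of 0 genes in AGy against A became 102 in the batch-corrected values, 11 with the components as covariates, 20 with 6 groups in one fit, 3 with all 24 samples in one fit, and 1 with quantile normalization and with the median of ratios; 1256 passed an unadjusted p under 0.05. It was 0 to 2 with 1 sample left out, with 2 without MO9 and 1 without MO10. The single interaction call against radiation alone became 1126 in the corrected values, 455 with the components as covariates, 3 with a pseudocount of 0.1, and 0 without a filter, with at least 5 TPM, with a variance trend, with 6 groups in one fit and with MO2 in C; with 1 sample left out it was 0 to 2. Against Noggin, the count of 0 became 24 and 11 in the first 2 of these settings, and stayed at 0 whichever sample was left out. The cause of these changes was not tested. The difference in TPM of the genes listed was 26448 to 30845 with 1 sample left out. The 5 genes described singly kept their direction in every alternative in which they were tested. Settings chosen after seeing the data left 87.2% to 94.9% of the genes called in Noggin in the same direction in ascorbic acid. No paired analysis was possible because the columns carry no replicate number. Medians of the fixed gene lists were not run, since identifiers have no symbols here.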
